A study of Homo sapiens with 34 samples.

Results

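EZH2 carries the methyltransferase activity of Polycomb repressive complex 2 (PRC2) and places the repressive histone mark H3K27me3. The regions described here were EZH2 peaks of androgen-independent (AI) LNCaP cells that lay outside H3K27me3 and are called solo EZH2 peaks below. They were the peaks of the AI EZH2 list, on chromosomes 1 to 22, that overlapped no peak of 4 H3K27me3 lists (2 of AI cells, 2 of AD cells) and no peak of either EZH2 list of androgen-dependent (AD) cells. They were thus chosen by called peak positions in EZH2 and H3K27me3 ChIP, and RNA values played no part. The rule kept 7919 of 11852 AI EZH2 peaks (66.8%).

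LNCaP is an established human prostate cancer cell line that depends on androgen. AD cells grew in RPMI1640 medium, and the AI derivative was kept in RPMI1640 with charcoal-stripped serum, which is low in steroids. Chromatin immunoprecipitation (ChIP) peaks came from untreated cells, with 1 AI EZH2 sample, so no solo peak could be checked against a replicate. RNA-seq covered untreated AD and AI cells and AI and AD cells collected 24 h after transfection with a mock siRNA or an siRNA against EZH2 (siEZH2), with 2 libraries a group. The protocol names LNCaP/abl as the transfected line, while titles also name AD transfections. The titles were followed, and values of mock AD hold only if they are right. Nothing in the labels says that the 2 libraries of a group were separate cultures, so p-values reflect the spread of these libraries only, possibly technical.

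PRC2 usually acts where its mark is found: EZH2 and its partners EED and SUZ12 methylate histone H3, and PRC1 complexes with CBX proteins read the mark. CpG-rich starts of silent developmental genes are the best known PRC2 sites. In castration-resistant prostate cancer EZH2 has also been described at active genes, apart from PRC2 and together with the androgen receptor. A solo peak is a called EZH2 peak with no called H3K27me3 peak on it, which does not show that the mark is absent there.

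Of the 33725 listed RefSeq promoter windows (300 bases, from 250 before to 50 after a start), 70 lay at least in part under a solo peak, 44 of them by 150 bases or more and 16 wholly. The 6 windows below were chosen after their values were seen. CALD1, which encodes the actin-binding protein caldesmon, PSMF1, an inhibitor of the proteasome, and CDK2AP1, a regulator of the kinase CDK2, are shown as well-expressed genes with a peak over a start. PDZRN3, a ubiquitin ligase, was lower in AI than in AD cells. SYCP3, a protein of the meiotic synaptonemal complex, has a CpG-rich window that was wholly covered. MIR3142HG, a microRNA host gene, lay under the highest-scoring peak of the 6. Sequences are RefSeq's, build GRCh38.p14, 5′ to 3′ on the gene's strand, with bases inside the solo peak in capitals.
CALD1, chr7:134711249-134711548, plus strand, peak score 52.21: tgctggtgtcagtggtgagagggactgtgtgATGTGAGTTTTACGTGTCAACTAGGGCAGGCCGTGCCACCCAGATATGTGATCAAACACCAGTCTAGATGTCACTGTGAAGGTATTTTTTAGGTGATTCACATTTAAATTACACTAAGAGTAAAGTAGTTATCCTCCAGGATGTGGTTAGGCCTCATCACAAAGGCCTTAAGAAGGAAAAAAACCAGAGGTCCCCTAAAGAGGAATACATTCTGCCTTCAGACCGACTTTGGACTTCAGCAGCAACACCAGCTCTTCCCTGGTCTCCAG
PSMF1, chr20:1113013-1113312, plus strand, peak score 76.13: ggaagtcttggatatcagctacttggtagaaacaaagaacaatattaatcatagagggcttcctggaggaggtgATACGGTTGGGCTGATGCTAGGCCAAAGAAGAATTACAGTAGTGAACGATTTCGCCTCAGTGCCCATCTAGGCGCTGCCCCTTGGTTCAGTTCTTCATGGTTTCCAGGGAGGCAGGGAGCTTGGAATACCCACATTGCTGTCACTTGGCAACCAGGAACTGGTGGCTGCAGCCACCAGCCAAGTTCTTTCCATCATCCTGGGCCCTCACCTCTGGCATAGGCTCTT
CDK2AP1, chr12:123268268-123268567, minus strand, peak score 62.52: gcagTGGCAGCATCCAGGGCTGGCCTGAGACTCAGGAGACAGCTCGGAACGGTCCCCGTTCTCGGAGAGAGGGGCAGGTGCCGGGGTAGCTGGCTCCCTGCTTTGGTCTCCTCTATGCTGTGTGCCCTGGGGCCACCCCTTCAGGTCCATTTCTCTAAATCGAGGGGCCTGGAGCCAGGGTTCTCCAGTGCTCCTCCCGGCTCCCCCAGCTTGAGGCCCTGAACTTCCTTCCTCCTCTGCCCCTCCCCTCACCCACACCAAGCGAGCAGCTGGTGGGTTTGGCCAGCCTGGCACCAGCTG
PDZRN3, chr3:73569466-73569765, minus strand, peak score 67.89: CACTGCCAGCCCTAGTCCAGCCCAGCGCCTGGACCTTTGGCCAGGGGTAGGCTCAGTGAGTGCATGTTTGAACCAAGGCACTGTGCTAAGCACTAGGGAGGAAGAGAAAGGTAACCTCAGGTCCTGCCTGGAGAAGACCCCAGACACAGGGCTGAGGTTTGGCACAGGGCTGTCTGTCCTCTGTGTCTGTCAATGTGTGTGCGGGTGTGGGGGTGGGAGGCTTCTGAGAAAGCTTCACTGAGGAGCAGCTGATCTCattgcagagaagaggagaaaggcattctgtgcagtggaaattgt
SYCP3, chr12:101739413-101739712, minus strand, peak score 58.63: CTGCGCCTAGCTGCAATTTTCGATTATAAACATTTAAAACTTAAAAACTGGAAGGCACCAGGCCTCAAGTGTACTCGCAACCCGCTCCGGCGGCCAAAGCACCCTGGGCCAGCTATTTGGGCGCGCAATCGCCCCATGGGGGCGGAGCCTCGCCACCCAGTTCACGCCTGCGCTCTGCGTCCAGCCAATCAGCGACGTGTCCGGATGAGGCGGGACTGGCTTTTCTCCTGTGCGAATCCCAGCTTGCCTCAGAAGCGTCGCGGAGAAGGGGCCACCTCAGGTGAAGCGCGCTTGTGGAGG
MIR3142HG, chr5:160468001-160468300, plus strand, peak score 117.45: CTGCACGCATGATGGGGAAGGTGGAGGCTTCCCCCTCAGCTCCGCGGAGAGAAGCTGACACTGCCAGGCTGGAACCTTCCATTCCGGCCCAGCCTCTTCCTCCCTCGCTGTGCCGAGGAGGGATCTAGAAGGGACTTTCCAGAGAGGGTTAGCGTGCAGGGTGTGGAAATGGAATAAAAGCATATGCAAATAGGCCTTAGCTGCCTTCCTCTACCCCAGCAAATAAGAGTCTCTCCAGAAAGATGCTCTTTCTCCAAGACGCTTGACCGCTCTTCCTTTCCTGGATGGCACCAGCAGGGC

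The windows under solo peaks were poor in CpG. By the criterion of at least 50% G+C and an observed to expected CpG ratio of at least 0.6, 12 of the 70 windows (17.1%) were CpG-rich, against 47.1% of all windows and 25 of the 43 windows (58.1%) under AI EZH2 peaks on H3K27me3. The median CpG ratio was 0.281 under solo peaks, 0.581 over all windows and 0.632 under peaks on H3K27me3. Of 643 windows under AD EZH2 replicate 1 peaks free of H3K27me3, 34.4% were CpG-rich, with a median ratio of 0.418, also below all windows. The rule removed peaks on H3K27me3, so the contrast with them is partly built in. CALD1 (ratio 0.190), CDK2AP1 (0.254), PSMF1 (0.205) and PDZRN3 (0.0891) were all CpG-poor, whereas SYCP3 reached 0.880. The first 4 of these genes have several listed starts (4, 3, 2 and 5), and RPKM of a whole gene cannot say which start was used. The letters AGAACA, a core of the element bound by the androgen receptor, stood on either strand in 17 of the 70 windows (24.3%), against 14.8% of all windows. It was the only one of the 6 motifs searched with a higher share than in all windows. Under AD EZH2 replicate 1 peaks free of H3K27me3 it stood in 14.0% of windows. Motif shares were not adjusted for the base composition of the windows. The GC box GGGCGG stood in 30% against 45% of all windows, the CCAAT box CCAAT in 21.4% against 34.4%, and the TATA box TATAAA in 7.14% against 11.6%. The E-box CACGTG (2.86% against 7.18%) and the forkhead core TGTTTAC (1.43% against 3.45%) were rare in both. No motif contains another, and a match is a description of the letters only. CpG values and motifs were taken over whole windows, so a match can lie outside the peak. In PSMF1 above, AGAACA stands only in lower case, outside the peak. The windows of ABCG8 and SIGLECL1 also count as matches, with 19 and 5 bases under a peak and the motif outside it.

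Peak lists gave little overlap even within 1 cell state. Of the 12317 peaks of AD EZH2 replicate 2, 1398 (11.4%) overlapped a peak of replicate 1, which held 53638. Of the 11852 AI EZH2 peaks, 932 (7.86%) overlapped AD replicate 1 and 205 (1.73%) overlapped AD replicate 2. Absence from the AD lists is thus a statement about these lists and cannot be told apart from the spread between lists. AI EZH2 peaks on H3K27me3 numbered 3155 (26.6%), while the 4 H3K27me3 lists together covered 14.2% of the span. The AD EZH2 lists had similar shares on H3K27me3 (29.9% in replicate 1 and 29.3% in replicate 2).

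Solo peaks were narrow and of low score. Their median width was 444 bases (222 to 1131). The deposited score, the authors' own value on a scale not given in the sources used here, had a median of 57.33 and ran from 50.01 to 159.99. It was below 60 for 60.8% of solo peaks and at least 100 for 120 of them. Peaks on H3K27me3 had a median score of 57.74 and a median width of 450 bases. Many solo peaks had H3K27me3 nearby: 620 (7.83%) within 1 kb and 1885 (23.8%) within 5 kb, close to the shares of the remaining span (7.69% and 22.1%). Just inside the rule, 71 solo peaks lay under 100 bases from an H3K27me3 peak. Just outside it, 64 AI peaks overlapped one by under 100 bases. AD EZH2 peaks were nearer than the span would give: 771 solo peaks (9.74%) lay within 1 kb of one, against 4.13% of the remaining span, and 2532 (32.0%) within 5 kb, against 16.3%.

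The solo peaks lay mostly inside genes. By midpoint, 4307 (54.4%, Wilson 95% interval 53.3 to 55.5) were in the body of a protein-coding gene, which make up 42.1% of the span. A further 875 (11.05%) were in the body of a long noncoding RNA (lncRNA) gene, and 708 (8.94%) lay within 5 kb of a gene. The remaining distant peaks, more than 5 kb from any gene, numbered 1971 (24.9%, interval 23.9 to 25.9). AI EZH2 peaks on H3K27me3 were in protein-coding genes less often (41.3%, interval 39.6 to 43.0) and more than 5 kb from any gene more often (35.2%, interval 33.6 to 36.9). The 778 AI peaks free of H3K27me3 that the AD lists shared were in protein-coding genes in 72.5% (interval 69.3 to 75.5). Intervals cover counting error only, and neighbouring peaks are not independent. Exons and introns were not analysed here.

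**Figure D1:**
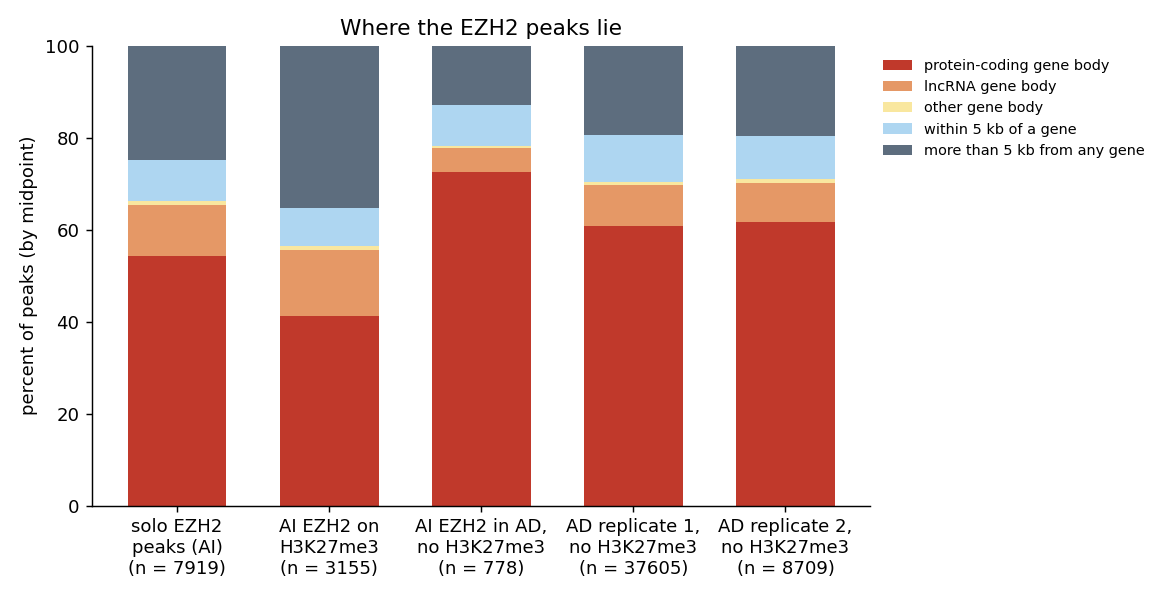
Percent of EZH2 peaks by place of the midpoint (bars add to 100%), for solo peaks and 4 other sets of EZH2 peaks. Protein-coding gene bodies held 54.4% of solo peaks, 41.3% of AI peaks on H3K27me3 and 60.9% and 61.7% of AD peaks free of H3K27me3.

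Solo peaks gathered around gene starts, but not at them. Leaving out the 432 solo peaks of chromosome 8, whose starts were not used here, 7487 remained. Of these, 192 (2.56%, interval 2.23 to 2.95) lay within 1 kb of a start, 980 (13.1%, interval 12.3 to 13.9) within 5 kb and 1799 (24.0%) within 10 kb. Relative to the span, midpoints were 1.07 times as frequent within 1 kb, 1.44 times from 1 to 2 kb, 1.54 times from 3 to 5 kb and 0.553 times beyond 100 kb. AI peaks on H3K27me3 showed another profile, with 1.56 within 1 kb, 1.70 from 1 to 2 kb and 1.00 from 3 to 5 kb. AI peaks free of H3K27me3 that the AD lists shared stood at 1.96 within 1 kb. The rule removed both of these AI sets, so the lower value of solo peaks at starts is partly built in. AD peaks free of H3K27me3 stood at 1.75 (replicate 1) and 1.64 (replicate 2) within 1 kb. These AD sets were not filtered against EZH2 peaks of AI cells. Only 46 solo peaks lay over a start. Of the others within 5 kb, 393 were upstream and 541 downstream. Among the 120 solo peaks with a score of at least 100, 20.3% of those outside chromosome 8 lay within 5 kb of a start, so this share moved with the score.

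**Figure D2:**
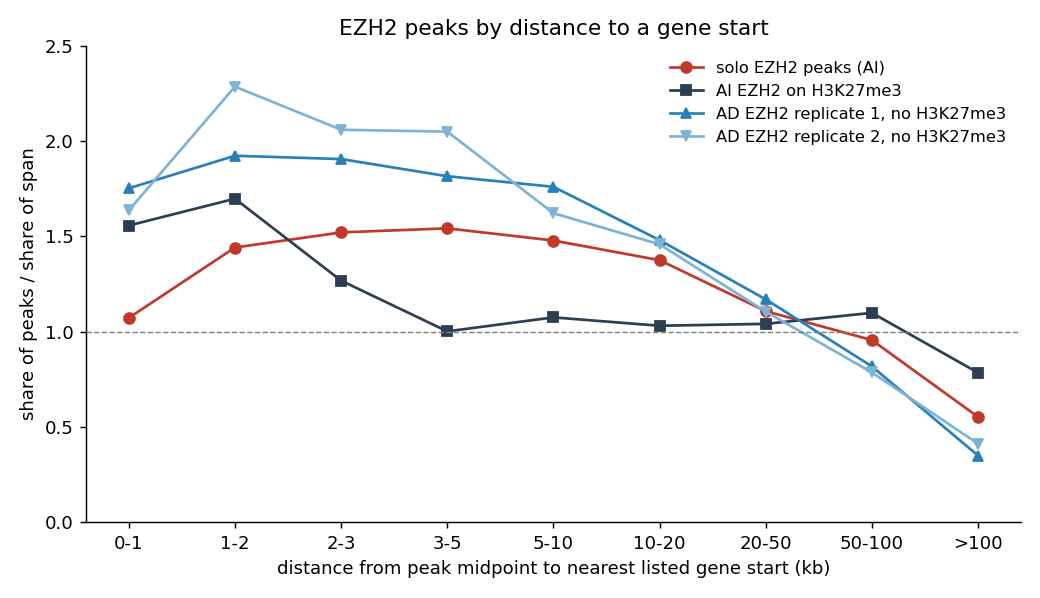
Share of peak midpoints divided by the share of the span (vertical axis, 1 marks equal shares) by distance to the nearest listed gene start in kb (horizontal axis), with a line for each set of EZH2 peaks. Solo peaks rise from 1.07 within 1 kb to 1.54 at 3 to 5 kb and fall to 0.553 beyond 100 kb.

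Long genes collected most solo peaks. In all, 4390 genes of the annotation held a solo peak in the body, 1011 of them at least 2 and 39 at least 5. ASTN2, an astrotactin of neuronal migration, held 12 over 992 kb. CTNNA2, the neuronal alpha-catenin, held 9 over 1463 kb, and DCC, a netrin receptor, held 8 over 1196 kb. GPHN, which anchors receptors at inhibitory synapses, held 7 over 1227 kb, and TRIO, a guanine nucleotide exchange factor, held 7 over 367 kb. CTNNA2 (0.08 and 0.02 RPKM in untreated AI cells) and DCC (0.20 and 0.02) were nearly silent, ASTN2 stood at 1.63 and 1.03 RPKM, GPHN at 3.32 and 3.10 and TRIO at 3.30 and 3.82. RPKM scales reads to gene length and library size. H3K27me3 lay within 1 kb of a listed start of CTNNA2 and of DCC in both AI lists. For ASTN2 this held in replicate 2 only, and for GPHN and TRIO in neither list. The solo peaks nearest a start of CTNNA2 and DCC lay 625 and 624 bases from an H3K27me3 peak. CEP131, a centrosome protein gene named here after its values were seen, held 6 solo peaks within 33.4 kb, at 18.0 peaks per 100 kb against 1.21 for ASTN2. Its 1-Mb window, chr17:81000001-82000000, was the densest, with 21 solo peaks. AD EZH2 replicate 1 had 181 peaks there.

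The 15 solo peaks of highest score were mostly inside genes: 11 in protein-coding bodies, 2 in lncRNA bodies and 2 more than 5 kb from any gene. The first, chr9:92242435-92243195 (score 159.99), lay in IARS1, the cytosolic isoleucyl-tRNA synthetase, 50502 bases downstream of its start. The second, chr18:49941033-49941620 (score 159.34), lay in MYO5B, a myosin of vesicle transport. The third, chr4:46715340-46716149 (score 149.43), lay in no gene, 193096 bases from the start of COX7B2. The peak at chr11:78196274-78197224 (score 146.44) lay 7355 bases inside USP35, a deubiquitinase, and 1723 bases from an AD EZH2 peak. The peak at chr1:154603765-154604573 (score 136.92) lay in ADAR, which edits adenosine to inosine in double-stranded RNA, 4224 bases downstream of a listed start within the gene.

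Genes that held these top peaks were expressed at widely different levels. IARS1 measured 37.95 and 40.35 RPKM in untreated AI cells, 16.43 and 18.49 in mock and 12.47 and 13.36 in siEZH2 cells. ADAR measured 29.32 and 36.69, 13.21 and 12.87, and 13.37 and 12.73 RPKM in the same order. MYO5B was low in all 3 states, with 2.59 and 2.82, 2.04 and 2.16, and 1.39 and 1.72 RPKM. USP35 measured 2.35 and 1.89 RPKM untreated, 5.34 and 4.55 in mock and 6.0 and 5.64 in siEZH2 cells. Untreated and transfected libraries come from separate experiments and were not compared by a test. With siEZH2, none of these 4 passed limma's test against mock (Benjamini-Hochberg adjusted p = 0.108 for IARS1, 1.00 for ADAR, 0.251 for MYO5B and 0.485 for USP35). For TAB1, an activator of the kinase TAK1, the siEZH2 difference was -0.02 ± 0.10 (log2, SE), and for TSPAN9, a tetraspanin, 0.08 ± 0.11.

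Expression was read from 737 listed genes with a solo peak within 5 kb of a start, of 14650 listed genes matched to a start (5.03%). The cells behind the libraries looked luminal: 10 luminal markers summed to 3023.71 and 2460.92 RPKM in untreated AI cells, against 1.21 and 1.32 for 4 basal markers (KRT5 and TP63 at 0), 8.07 and 7.28 for 4 neuroendocrine markers (INSM1 at 0) and 1.36 and 1.36 for 4 blood and stroma markers (PECAM1 at 0). Mitochondrially encoded genes took 18.4% to 33.4% of summed RPKM in untreated libraries and 2.10% to 4.07% in transfected ones. Their part in the levels and calls below was not tested. Depth of the libraries is not given with RPKM values.

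Genes near solo peaks were expressed above the typical gene. Their median level was 3.91 and 3.57 RPKM in the 2 untreated AI libraries, 2.44 and 2.46 in mock and 2.31 and 2.30 in siEZH2. All genes matched to a start had medians of 1.65 and 1.56, 1.03 and 1.03, and 0.90 and 0.885 RPKM. In untreated AI cells 63.4% and 63.5% of genes near a solo peak reached 1 RPKM, against 54.8% and 54.1% of all. The same genes were also above the typical gene in AD cells, where these peaks were not listed. Their AD medians were 3.49 and 3.58 RPKM untreated and 5.12 and 4.79 in mock. All genes had 1.38 and 1.52 there untreated, and 1.92 and 2.07 in mock. Genes with an AI EZH2 peak on H3K27me3 within 5 kb were nearly silent, with medians of 0.01 and 0 RPKM in untreated AI cells. Their order was the same in all 6 AI libraries. Genes near the AI peaks free of H3K27me3 that AD lists shared (136 genes) had medians of 4.28 and 3.66 RPKM in untreated, 3.98 and 4.29 in mock and 4.18 and 4.38 in siEZH2 AI cells, also above those of all genes. H3K27me3 lay within 1 kb of a start of 2.71% (AI replicate 1) and 9.63% (replicate 2) of genes near a solo peak, against 6.37% and 15.6% of all genes. The rule used H3K27me3, so these shares are a description.

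Closeness to the start reversed the order. The 114 genes with a solo peak within 1 kb of a start had medians of 0.64 and 0.775 RPKM in untreated AI cells, below the 1.65 and 1.56 of all genes. Their quartiles were wide, from 0.01 to 8.90 and from 0 to 8.76 RPKM. In AD cells, where these peaks were not listed, the same genes stood at 1.01 and 1.03 RPKM, against 1.38 and 1.52 for all genes. Genes with a solo peak in the body (3278 genes) had medians of 2.46 and 2.42 RPKM, against 0.60 and 0.53 for all genes matched to a body.

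**Figure D3:**
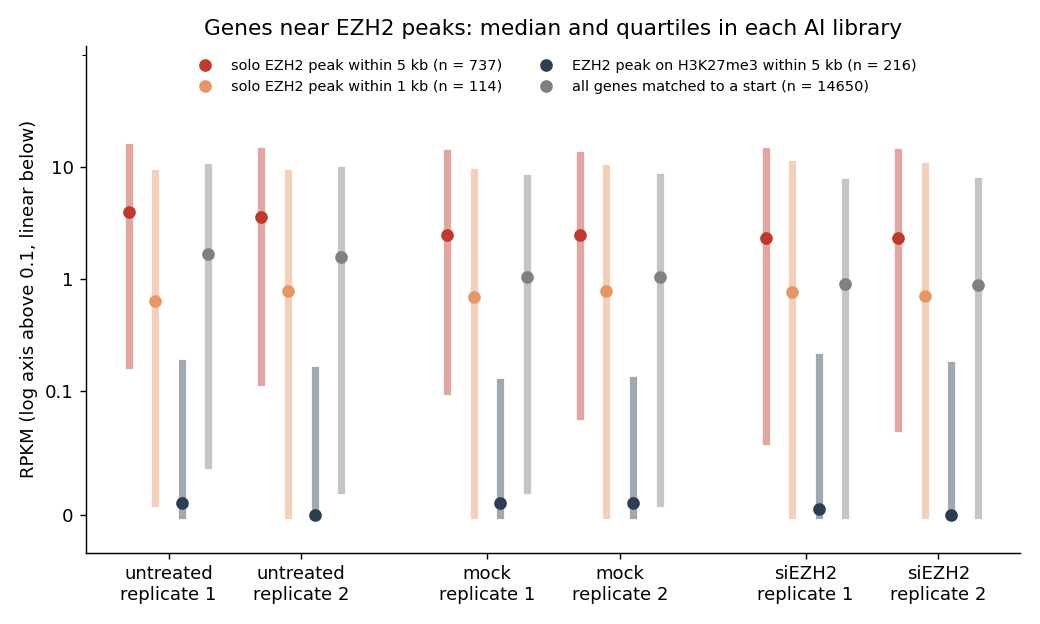
RPKM of gene sets (vertical axis, logarithmic above 0.1 and linear below) in each of the 6 AI libraries; points are medians and bars run from the lower to the upper quartile over genes. Of the 4 sets plotted, genes with a solo peak within 5 kb sit highest in every library (2.30 to 3.91), and genes with a peak on H3K27me3 lie at or near 0.

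The 10 genes with a solo peak within 1 kb of a start and the highest level in untreated AI cells served several functions. MARCKSL1, an actin-linked membrane protein, led with 295.94 and 389.14 RPKM, followed by CALD1 with 106.90 and 129.17. RAB13, a GTPase of membrane traffic, had 93.39 and 98.21 RPKM, and UBXN6, a cofactor of the ATPase VCP, 78.64 and 56.98. STAP2, a signalling adaptor, had 78.61 and 49.79 RPKM, and CYB561, a transmembrane cytochrome, 49.55 and 34.06. PSMF1 (30.57 and 31.78), TRPT1, a tRNA phosphotransferase (31.15 and 29.05), CDK2AP1 (28.30 and 25.86) and CREBL2 (17.32 and 21.03) closed the list. In mock AI cells CALD1 measured 37.71 and 36.49 RPKM, MARCKSL1 171.58 and 172.63, and UBXN6 211.09 and 197.14.

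The siEZH2 comparison asked whether genes near solo peaks moved when EZH2 was targeted. EZH2 itself measured 10.11 and 12.62 RPKM in untreated AI cells, 7.07 and 5.44 in mock and 3.60 and 4.33 in siEZH2. The siEZH2 libraries lay below both mock libraries, with a log2 difference of -0.59 ± 0.18 (SE) that did not pass (limma, adjusted p = 0.126). Log2 values here and below were computed after adding 0.5 to each RPKM, so changes of low genes come out too small.

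Few genes near solo peaks moved with siEZH2. Of 547 genes that passed the filter on low values, 6 (1.10%) fell and 0 rose by limma's adjusted p under 0.05. Over all 14227 genes tested, percent called was 1.46, with 0.0703 higher and 1.39 lower, so the share near solo peaks was close to the background. At an unadjusted p under 0.05, 90 of the 547 (16.5%; 47 higher and 43 lower) differed, against 18.8% of all. The median log2 difference was 0.05 near solo peaks and -0.05 over all genes. Leaving out any of the 4 libraries left 0 calls by limma, both near solo peaks (48 to 66 at an unadjusted p under 0.05) and over all genes, so the loss was general. The differences kept their size: DLD ran from -0.76 to -0.70 and FXR1 from -0.69 to -0.63 on the log2 scale in those fits. With each library centred on its median, and with quantile normalization, it was 0 by limma (137 and 81 at an unadjusted p under 0.05), against 0 and 11 over all genes. Centring moved the median to 0.18 near solo peaks and to 0.09 over all genes. Fitting the 4 libraries of the comparison alone gave 38 calls (17 higher, 21 lower), or 7.87% against 10.5% of all genes.

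The 6 genes that fell serve metabolism, RNA binding and the cytoskeleton. DLD, the dihydrolipoamide dehydrogenase of mitochondrial enzyme complexes, measured 30.39 and 31.66 RPKM in mock and 18.24 and 18.87 in siEZH2 (log2 -0.73 ± 0.09, limma adjusted p = 0.0218). Its solo peak lay 4626 bases downstream of a listed start. FXR1, an RNA-binding relative of FMRP, went from 20.83 and 21.69 to 13.33 and 13.17 RPKM (log2 -0.66 ± 0.10, limma adjusted p = 0.0338), with its peak 839 bases upstream. SCP2, a sterol carrier protein, went from 17.36 and 17.88 to 11.50 and 10.69 (log2 -0.64 ± 0.12, limma adjusted p = 0.0403). In each of them the 2 siEZH2 libraries lay below both mock libraries, as the naming rule asks. MRPL32, of the mitochondrial ribosome, went from 118.98 and 129.55 to 80.92 and 84.09 RPKM. CALD1 went from 37.71 and 36.49 to 25.40 and 23.92, and ACBD3, a Golgi protein, from 31.90 and 33.30 to 21.25 and 23.47. Their log2 differences were -0.59, -0.58 and -0.54, with limma adjusted p = 0.0362, 0.0403 and 0.0466.

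Comparisons of AI with AD cells asked whether genes near peaks listed in AI alone differed between the cell states. In untreated cells 197 of 547 genes near solo peaks passed (36.0%; 107 higher and 90 lower in AI), against 34.6 percent called over all genes (22.2 higher, 12.4 lower). After mock transfection 339 passed (62.0%; 50 higher and 289 lower), against 55.7 percent called (12.2 higher, 43.5 lower). Scaling changes these splits. With each library centred on its median they were 67 higher and 134 lower in untreated cells (2024 and 2555 over all genes) and 167 higher and 140 lower in mock (4782 and 2915 over all). With quantile normalization they were 73 higher and 126 lower in untreated cells (2336 and 2291 over all), and 99 higher and 180 lower in mock (3440 and 3522 over all). The median log2 difference over all genes was 0.13 in untreated and -0.41 in mock (-0.04 and 0.21 centred). Near solo peaks it was 0.09 and -0.52 (-0.08 and 0.09 centred). Centring shifts every gene of a comparison by the same amount, so the sign of these medians is set by the scaling. Fitting the 4 untreated libraries alone left 53 calls (10.2%, against 13.9% of all genes). The mock comparison shares its AI libraries with the siEZH2 comparison.

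**Figure D4:**
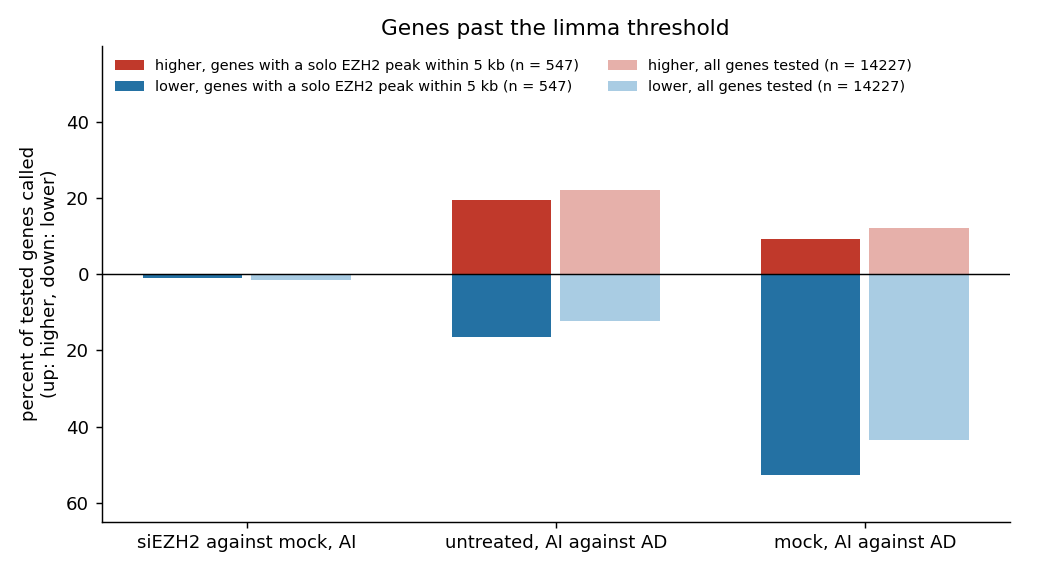
Percent of tested genes that passed limma's adjusted p under 0.05 (vertical axis; higher above the line, lower below it) in 3 comparisons, for genes with a solo peak within 5 kb and for all genes tested. For siEZH2 the bars are near 0 (1.10% and 1.46%), and for mock cells the lower calls reach 52.8% near solo peaks and 43.5% over all genes.

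Among genes near solo peaks, HTATIP2, a tumour suppressor that binds importins, stood out by its level. It was listed at 0 in both untreated AD libraries and at 0 and 0.15 RPKM in mock AD. In AI cells it measured 8.37 and 6.49 RPKM untreated, 20.44 and 24.07 in mock, and 20.44 and 22.41 in siEZH2. AI lay above AD in both experiments (limma adjusted p = 6.64e-07 untreated and 9.35e-08 mock), and siEZH2 and mock overlapped. The solo peak, chr11:20362590-20363124 (score 63.27), lay 590 bases upstream of the only listed start and 4189 bases from the nearest H3K27me3 peak.

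Other genes were higher in untreated AI cells. LRRN1, a leucine-rich neuronal membrane protein, rose from 5.33 and 7.15 to 26.67 and 32.33 RPKM (log2 2.16 ± 0.17, limma adjusted p = 2.32e-05). Its solo peak lay 634 bases from H3K27me3. PIK3R3, a regulatory subunit of PI3 kinase, rose from 7.06 and 8.54 to 22.98 and 30.21 RPKM (log2 1.70). NACC2, a BTB-domain repressor, rose from 4.89 and 4.4 to 12.95 and 11.86 (log2 1.33). PREPL, a serine hydrolase, rose from 0.64 and 1.79 to 3.37 and 4.4 RPKM (log2 1.43), and HSPB8, a small heat shock protein, from 0.67 and 0.21 to 2.24 and 1.51 (log2 1.36). In mock cells LRRN1, PIK3R3, NACC2 and HSPB8 were lower in AI instead, with log2 differences of -2.83, -1.57, -2.0 and -1.73. LRRN1 there measured 7.30 and 8.58 RPKM in AD and 0.67 and 0.70 in AI.

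Several genes near solo peaks were lower in untreated AI cells. PLA2G4D, a cytosolic phospholipase A2, fell from 4.18 and 4.26 RPKM in AD to 0.11 and 0.09 in AI (log2 -2.98 ± 0.12, limma adjusted p = 5.40e-07). FUCA2, a fucosidase, fell from 20.01 and 15.56 to 1.81 and 2.01 (log2 -2.91). SLC43A1, an amino acid transporter, fell from 21.92 and 20.84 to 2.52 and 2.34 (log2 -2.90), and its solo peak lay 63 bases from an H3K27me3 peak. PLOD1, which hydroxylates collagen lysines, fell from 313.63 and 277.08 to 56.54 and 45.81 RPKM (log2 -2.52). SEMA3G, a semaphorin, fell from 9.29 and 9.84 to 1.95 and 1.98 (log2 -2.03), and AMH, the anti-Müllerian hormone, from 5.17 and 4.90 to 0.80 and 1.20 (log2 -1.90). All 6 were lower in mock AI as well, by -0.76 (PLA2G4D), -2.03 (FUCA2), -0.84 (SLC43A1), -1.29 (PLOD1), -3.01 (SEMA3G) and -1.74 (AMH) on the log2 scale. The mock difference did not pass for PLA2G4D and SLC43A1 with median centring (limma adjusted p = 0.346 and 0.117), nor for PLA2G4D with quantile normalization (0.0793).

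After mock transfection, other genes led the falls. SQSTM1, the autophagy receptor p62, fell from 483.99 and 477.26 RPKM in AD to 68.77 and 65.82 in AI (log2 -2.83 ± 0.11, limma adjusted p = 2.83e-07), while untreated AI stood above AD (228.40 and 189.09 against 116.98 and 103.12). TRIM56, a ubiquitin ligase of antiviral signalling, fell from 14.83 and 14.37 to 1.60 and 1.20 RPKM (log2 -3.00), with 9.0 and 8.42 in AD and 9.39 and 8.24 in AI among untreated cells. FZD9, a Wnt receptor, fell from 7.95 and 6.34 to 0.57 and 0.13 (log2 -3.21). PDZRN3, whose peak covers a start shown above, fell from 14.79 and 15.55 to 1.61 and 1.56 RPKM (log2 -2.91) and in untreated cells from 14.60 and 12.10 to 5.65 and 4.62 (log2 -1.30).

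Besides HTATIP2, 5 genes near solo peaks led the rises in mock AI cells. CDC20, an activator of the anaphase-promoting complex, rose from 10.28 and 10.61 to 45.54 and 47.16 RPKM (log2 2.10 ± 0.13, limma adjusted p = 1.96e-06). PIM1, a survival kinase, rose from 6.03 and 6.91 to 28.78 and 33.02 (log2 2.17), and its solo peak scored 113.43. GAPDH, a glycolytic enzyme, rose from 806.33 and 818.21 to 2198.90 and 2281.84 (log2 1.46). In untreated cells PIM1 and GAPDH were lower in AI, by -1.32 and -1.09 on the log2 scale. CNTLN, a centriole protein, rose from 0.55 and 0.88 to 2.77 and 2.35 RPKM (log2 1.34). SNHG19, a snoRNA host gene, rose from 84.61 and 74.48 to 183.47 and 222.46 (log2 1.34 ± 0.47, limma adjusted p = 0.0357), a call lost in 5 of 11 alternatives (adjusted p up to 0.143).

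**Figure D5:**
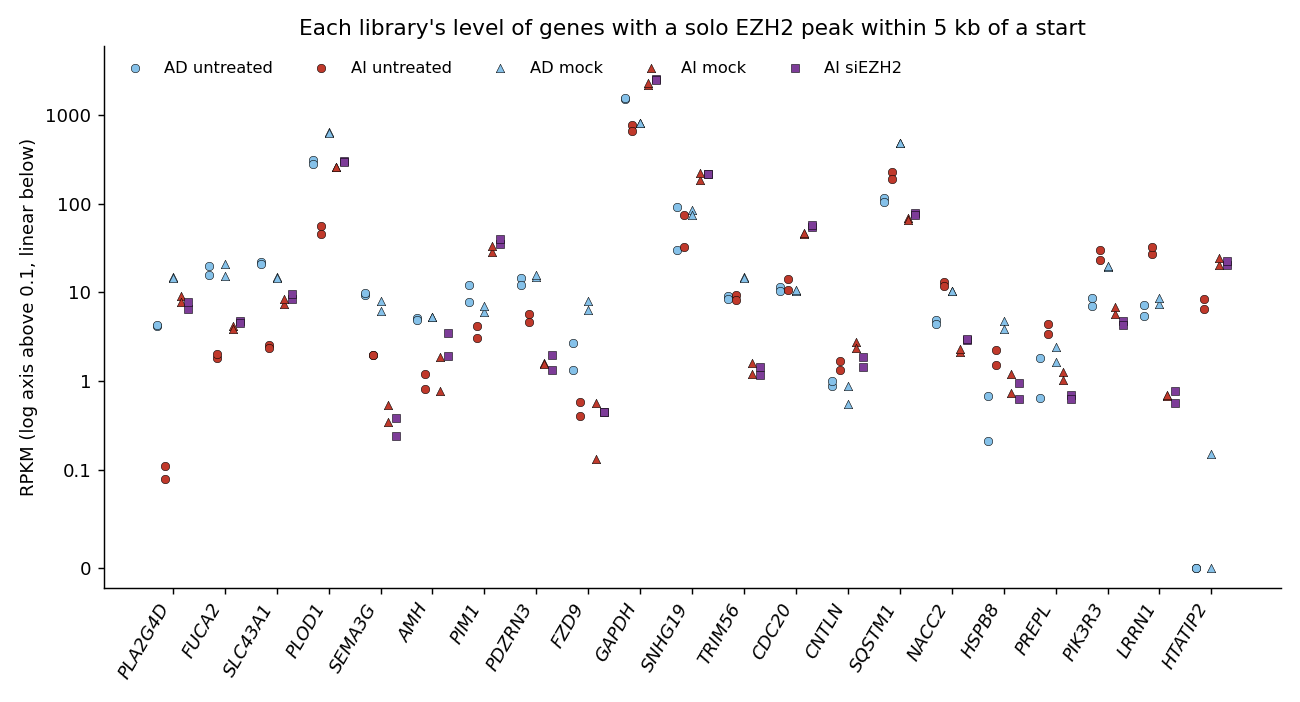
RPKM (vertical axis, logarithmic above 0.1 and linear below) of 21 genes named by rule for AI against AD; each point is 1 library, coloured by cell state and shaped by treatment. HTATIP2 lies at 0 to 0.15 in AD and at 6.49 to 24.07 in AI, and LRRN1 is above AD in untreated AI (26.67 and 32.33) and below it in mock AI (0.67 and 0.70).

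Genes of EZH2's own pathway held few solo peaks, as did genes in general. Of 12 PRC2 genes, 10 were matched to a start and 0 of these had a solo peak within 5 kb, against 5.03% of all matched genes, and 2 of the 12 held one in the body. These were EED, which binds the mark, and MTF2, which guides PRC2 to CpG-rich DNA. Over all genes matched to a body the share with a solo peak was 15.4%. MTF2 fell from 3.95 and 4.23 RPKM in mock to 2.11 and 1.83 in siEZH2 (log2 -0.90 ± 0.16, limma adjusted p = 0.0387), and this call was lost in 7 of 11 alternatives, in all of which the difference stayed between -1.02 and -0.69. EED measured 2.92 and 2.01 in mock and 2.33 and 1.72 in siEZH2 (limma adjusted p = 0.633). Of 18 PRC1 genes only CBX8, a reader of the mark, held a solo peak, at 14.53 and 9.30 RPKM in untreated AI cells.

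Androgen signalling genes held solo peaks in their bodies. Among 16 genes of the androgen receptor and its coregulators, 6 did, among them the coactivators NCOA1, NCOA3 and MED1, against 15.4% of all genes matched to a body. None of the 16 had one within 5 kb of a matched start, where 11 could be matched. Among 24 androgen-induced genes, 6 held one, including PMEPA1, a TGF-beta inhibitor, CAMKK2, a calcium-dependent kinase, and the transporter ABCC4. PMEPA1 measured 46.18 and 47.86 RPKM in untreated AI, above the 23.05 and 25.30 of AD, and 9.27 and 9.48 in mock AI, below the 41.43 and 44.84 of AD. NDRG1, another of the 6, was lower in untreated AI (13.38 and 13.00 against 309.32 and 290.43 RPKM), as was ABCC4. Of the 22 tested androgen-induced genes, 7 were called higher and 7 lower in untreated AI (22.2% and 12.4% of all genes). In mock AI, 3 were called higher and 12 lower (12.2% and 43.5% of all genes). Of the 15 tested coregulators and 22 tested androgen-induced genes, 0 passed for siEZH2 by limma (2 and 6 at an unadjusted p under 0.05), against 1.46% of all genes (18.8% unadjusted).

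Cell cycle genes held solo peaks in the body about as often as all genes (15.4%). Near starts the counts were small: 2 of 15 matched mitosis genes and 2 of 13 matched G1/S genes had one within 5 kb. Over all matched genes this share was 5.03%, and the difference was not tested. Of 18 mitosis genes, CDC20, PLK1 and NUSAP1 held a solo peak, CDC20 1318 and PLK1 2483 bases from a start. Of 15 genes of G1/S and replication, MCM2, MCM5 and TYMS did. In siEZH2, CDC20 measured 53.71 and 56.93 RPKM against 45.54 and 47.16 in mock (limma adjusted p = 0.339), and PLK1 31.79 and 26.95 against 24.52 and 22.35 (limma adjusted p = 0.293). The siEZH2 comparison called 3 of the 18 mitosis genes lower, none of them CDC20, PLK1 or NUSAP1, and 0 of the 15 G1/S genes by limma (9 and 7 at an unadjusted p under 0.05). Over all genes 1.46% were called (18.8% unadjusted).

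Of 20 developmental genes that PRC2 commonly marks, 0 held a solo peak, against 15.4% of all genes in the body and 5.03% near a start. The rule removed peaks on H3K27me3, so a low count at such genes is partly built in. Of the 20, 5 were listed at 0 in both untreated AI libraries. Of 14 genes described as EZH2-silenced in prostate cancer, 12 were listed and 2 held a solo peak in the body. BMPR1B, a BMP receptor, was higher in untreated AI cells (2.31 and 2.55 against 0.44 and 0.41 RPKM, log2 1.66). DAB2IP, a Ras GTPase-activating protein, held 3 solo peaks and measured 3.76 and 3.70 RPKM. Neither passed for siEZH2 (limma adjusted p = 0.382 and 0.904). Of the other lists, 1 of 4 basal markers (TP63) and 1 of 4 blood and stroma markers (VWF) held one in the body. Of 10 housekeeping genes, GAPDH alone had one, 4664 bases downstream of a listed start and past the end of the gene. Of 10 luminal and 4 neuroendocrine markers, 0 had one in the body or within 5 kb of a start.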

How the data were processed

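ChIP peaks, RNA-seq and RIP values were used as deposited. The authors deposited peak lists with a score per peak, each from 1 ChIP sample against its own input, and RPKM tables for RNA-seq. Per the submitters' processing notes, cutadapt and Bowtie2 (ChIP) and cutadapt, TopHat2 and edgeR (RNA-seq) were used on GRCh38, without versions. The peak names have the form MACS writes, per the files. Settings, depth and the scale of the score are stated in none of the sources used.

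Overlap meant at least 1 shared base. Gene bodies and starts came from RefSeq tables (GRCh38.p14), matched by symbol and chromosome: 14650 of 28071 listed genes had a start and 21269 a body. Starts of chromosome 8 were not used here. limma 3.58.1 (R 4.3.3) was fitted on log2(RPKM + 0.5) over all 12 RNA-seq libraries, with a trend and Benjamini-Hochberg adjustment, for 14227 genes with at least 0.5 RPKM in 2 libraries. It was tested on simulated data. TMM scaling, planned as an alternative, was run but is not reported, because its weights assume counts; median centring was added after its values were seen. The design allowed for other units; no count test was run. Tables held 0 unmapped columns of values.

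Named genes were EZH2, genes at the 15 highest-scoring peaks, the 5 genes with most peaks, up to 6 rises and 6 falls per comparison (called, mean of 1 RPKM, groups apart), the 10 most expressed genes with a peak within 1 kb of a start, and list genes at peaks. The 13 lists covered PRC2, PRC1, androgen receptor coregulators, androgen-induced genes, mitosis, G1/S, Polycomb targets, EZH2-silenced genes, housekeeping genes and luminal, basal, neuroendocrine, and blood and stroma markers. Members and lists were chosen with earlier results of these data known. Groups and replicate numbers came from sample titles.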

Additional observations from a re-analysis of the deposited data

Results flagged for a closer look

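The AI to AD difference was measured in untreated cells and again in mock-transfected cells, which share no library, and limma tested the difference between the 2. Of 22 genes examined (EZH2 and the genes named for either comparison), 20 differed. In 10 of these the sign was opposite, and in 8 of the 10 both differences passed on their own. Apart from EZH2, the genes were named for large changes in one of these comparisons, so these counts are partly set by that choice. The share of all genes that differed is not given here. Over all genes tested, the median log2 difference was 0.13 in untreated and -0.41 in mock cells. Values below are the mock difference minus the untreated one on the log2(RPKM + 0.5) scale. Mitochondrially encoded genes took 18.4% to 33.4% of summed RPKM in untreated and 2.10% to 4.07% in transfected libraries, and their part in these values was not tested.

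Opposite signs were seen for EZH2 (-1.72, limma adjusted p = 0.000513), LRRN1 (-4.99), SQSTM1 (-3.74), NACC2 (-3.33), PIK3R3 (-3.27), HSPB8 (-3.10), TRIM56 (-3.01, where the untreated difference of 0.01 did not pass, limma adjusted p = 0.961), PREPL (-2.03, where the mock difference of -0.60 did not pass, limma adjusted p = 0.117), PIM1 (3.49) and GAPDH (2.56). EZH2 was higher in untreated AI cells (10.11 and 12.62 against 5.21 and 6.94 RPKM) and lower in mock AI cells (7.07 and 5.44 against 10.95 and 12.48). The mock EZH2 difference (log2 -0.86) was -0.25 with median centring and -0.35 with quantile normalization, and did not pass (limma adjusted p = 0.281 and 0.155).

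The same direction but another size was seen for PLA2G4D (2.21), SLC43A1 (2.06), PLOD1 (1.24) and FUCA2 (0.88), where the fall in AI was larger in untreated cells, and for FZD9 (-1.93), PDZRN3 (-1.61) and SEMA3G (-0.98), where it was larger in mock cells. CDC20 (1.93), HTATIP2 (1.34) and CNTLN (0.86) rose more in mock cells. For HTATIP2 the size depends on the pseudocount, since AD libraries were listed at 0 or 0.15 RPKM.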

How the results depend on the processing

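The AI EZH2 list is 1 sample, AD lists overlapped little, scores were low, and depth is unknown, so single peaks carry no replicate check. The number of solo peaks (7919) was 4015 when any listed peak within 5 kb removed a peak and 120 at a score of at least 100. The percent within 5 kb of a start (13.1) was then 11.2 and 20.3, and for distances of 1 and 10 kb it was 2.56 and 24.0.

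Calls near solo peaks for siEZH2 (6) were 0 with median centring, 0 with quantile normalization, 38 from the comparison's libraries alone, and 0 to 0 with each library left out. For starts within 1 kb, within 10 kb, peaks in the body and scores of at least 100 the counts were 2, 12, 32 and 0 for siEZH2, 27, 375, 893 and 8 for untreated cells (197), and 43, 678, 1497 and 12 for mock cells (339). These alternatives test other numbers of genes. Within 1 kb, within 10 kb and in the body, the shares called for siEZH2 were 3.08%, 1.09% and 1.35%, against 1.46% of all genes. In untreated cells these shares were 41.5%, 34.2% and 37.6%, against 34.6%. In mock cells these shares were 66.2%, 61.9% and 63.1%, against 55.7%. Untreated calls were 53 from the 4 libraries alone. With each library left out, they ran from 144 to 197 in untreated and from 282 to 295 in mock cells. Median RPKM (3.74, 2.45 and 2.31 in untreated, mock and siEZH2 AI cells) was 0.708, 0.735 and 0.733 within 1 kb, and 2.44, 1.62 and 1.36 for the body. Within 10 kb it was 2.86 in mock and 2.72 in siEZH2, and at scores of at least 100 it was 3.98 and 4.56. The cause of these changes was not tested.

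Of 649 alternatives for 59 gene results, 577 kept direction and side of the threshold, 70 lost the call and 2 reversed: CALD1 (0.32) and DLD (0.23) in mock AI against AD with median centring. TMM scaling of the RPKM values was planned and run but is not reported, because its weights assume counts. Median centring was chosen after seeing the data, TMM values included. With the replicate number as a block, calls near solo peaks were 9, 213 and 342 (6, 197 and 339 in the main fit). The shares of all genes called in the block fit are not given here. The labels do not say that the numbers pair the samples. Deviations of equal numbers correlated at 0.021 (mock and siEZH2 AI) and 0.062 (mock AI and AD), but at 0.70 between untreated AD and AI. In those untreated libraries, the mitochondrial share was 18.4% (AD) and 19.6% (AI) in replicate 1, and 32.6% and 33.4% in replicate 2. The main fit had no block for this.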

Other observations

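In RNA immunoprecipitation with the EZH2 antibody, RNAs of genes with a solo peak within 5 kb of a start (697 listed) had median levels of 1.27 and 2.90 RPKM in the 2 AI libraries, against 0.90 and 1.82 for all 13328 listed genes matched to a start. Control IgG libraries of AI cells had medians of 0.93 and 0 near solo peaks and 0.61 and 0 over all. In AD cells the EZH2 libraries stood at 1.48 and 2.47 against 1.01 and 1.48, and IgG at 0.94 and 2.10 against 0.53 and 1.47. Genes near solo peaks were also higher than all genes in total RNA, so these levels follow that order and are given as values only.

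By chromosome, solo peaks were densest on chromosome 17 (4.45 per Mb) and sparsest on chromosome 13 (0.945 per Mb). Their share among AI EZH2 peaks ran from 54.4% on chromosome 20 to 78.2% on chromosome 9.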
